A study of Mus musculus with 19 samples.

Results

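The livers of 3 mice on the Western diet (WD) that received AN1284 at 5 mg/kg/day were compared with the livers of 3 healthy mice on the normal diet (ND) that received saline. These 6 libraries, out of 19 in 6 groups, were chosen by diet and treatment, and the question was which transcripts still differed from the healthy liver after the higher dose. All mice were male C57BL/6JOlaHsd aged 4 weeks at the start, the diets were given for 4 months, and saline or drug came from a micro-osmotic pump for the last 8 weeks. The ND held 13.9% of its energy as fat. The WD held 50.5%, with 1.25% cholesterol, 20% sucrose, 10% fructose and choline at 900 mg/kg. Because the groups differed in diet and in drug at once, the part of each in a difference cannot be told apart within this comparison. For this reason the values of WD saline, and of ND mice given 5 mg/kg/day (ND AN1284 5 mg), are set beside it. Those groups had 3 livers each, and every comparison below shares libraries with the others. Values come from 3 livers a group unless stated, 1 library a liver. The p-values rest on the spread between mice within all 6 groups, since the 19 libraries were fitted together.

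AN1284 is an indoline derivative that was given here as a continuous infusion. Non-alcoholic steatohepatitis (NASH) is a disease in which hepatocytes store fat as lipid droplets, resident and recruited macrophages become inflamed, and stellate cells lay down matrix. A healthy liver exports sterols and triglycerides, makes bile acids, clears ammonia through the urea cycle and secretes most plasma proteins. In a liver loaded with cholesterol the sterol sensor SREBP2 is held back and the genes of cholesterol synthesis are little used, while the oxysterol receptor LXR drives export. In male mice the pulsed release of growth hormone keeps a set of hepatocyte genes high, through STAT5.

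Of 14743 genes tested with limma on log2(normalized count + 1), 2462 (16.7%) were higher and 2081 (14.1%) were lower in WD AN1284 5 mg than in ND saline at an adjusted p under 0.05, 4543 (30.8%) in all. The median size of a called difference was 0.73 on the log2 scale. A difference of over 1 log2 unit was met by 1106 genes higher (7.50%) and 520 lower (3.53%). Among the 500 genes of highest level, 36 were higher and 169 were lower. When libraries were scaled to their total reads instead, all log2 values moved up by a median of 0.208 and the split became 4189 higher and 910 lower, so the higher share of calls was 82.2% in place of 54.2%. For comparison, 7820 genes (53.0%) differed between WD saline and ND saline, 1849 (12.5%) between WD AN1284 5 mg and WD saline, and 1499 (10.2%) between ND AN1284 5 mg and ND saline. Against ND AN1284 5 mg, 453 genes (3.07%) were called in WD AN1284 5 mg, 251 higher (1.70%) and 202 lower (1.37%).

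**Figure D1:**
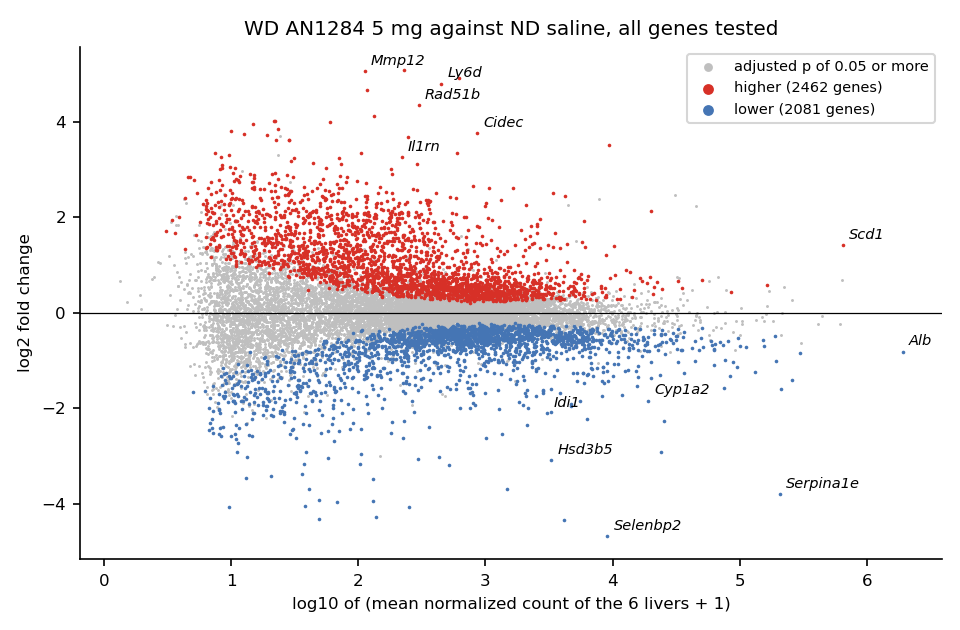
Each point is 1 of 14743 genes tested, with log10 of (mean normalized count of the 6 livers + 1) on the horizontal axis and the log2 fold change of WD AN1284 5 mg against ND saline on the vertical axis. Red points (2462 genes) were higher and blue points (2081 genes) lower at an adjusted p under 0.05, and grey points did not pass.

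Depth was close between the groups. ND saline libraries held 23326800 to 25112452 counted reads and WD AN1284 5 mg libraries 25367510 to 30813436. The size factors of the deposited table were 0.7592 to 0.7908 in ND saline and 0.9165 to 1.1532 in WD AN1284 5 mg, and the 500 most abundant genes took 65.9% to 67.2% of reads in ND saline against 62.9% to 63.7%. The part of this difference in composition in the results was not tested. In every liver of ND saline, ND AN1284 5 mg, WD saline and WD AN1284 5 mg, 14 hepatocyte markers summed to at least 1802816 normalized counts, which fits the label liver.

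Genes of cholesterol synthesis stayed low in the treated WD livers. Of 21 tested, 17 were lower and 1 was higher, with a median log2 fold change of -1.15 (all genes tested, -0.00). Idi1, the isomerase that makes dimethylallyl diphosphate, measured 4225, 5513 and 5153 normalized counts in the ND saline livers and 1582, 1059 and 902 in the WD AN1284 5 mg livers. The highest treated liver was thus below the lowest healthy liver by more than the spread of either group, and the log2 fold change was -2.10 (SE 0.23, adjusted p = 1.70e-05), 4.30-fold lower. Cyp51, which removes a methyl group from lanosterol, was 3.20-fold lower (5820 ± 443 against 1831 ± 316 normalized counts, adjusted p = 6.20e-06). Squalene synthase, Fdft1, was 3.12-fold lower (4263 ± 327 against 1369 ± 146), and Fdps, which makes farnesyl diphosphate, was 3.00-fold lower. Groups did not overlap for 20 of the 21 genes, where 41.7% of all genes tested did not overlap, 21.6% higher and 20.1% lower.

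WD saline had 16 of the 21 below ND saline (all genes tested, 25.0% lower), and between WD AN1284 5 mg and WD saline none passed the test in limma in either direction (all genes, 12.5%), and 1 was higher and none lower at an unadjusted p under 0.05. The median log2 difference between those groups was -0.14. Idi1 stood at 1274, 1358 and 1648 normalized counts in WD saline, which overlapped the treated livers. Against the ND livers given the same dose, 10 of the 21 were lower and none was higher, with Idi1 at a log2 difference of -2.11 (adjusted p = 6.11e-05) and Cyp51 at -1.51 (adjusted p = 6.11e-05). The low level of these genes in WD AN1284 5 mg was therefore measured against both ND groups.

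The promoters of 3 of these genes are shown because the list moved together. They are from RefSeq on GRCm38.p6, run from 250 bases before to 50 after the annotated start, and are written 5′ to 3′ on the gene's strand. The table gave a promoter for 14 of the 21 genes. Capitals mark a CCAAT box (CCAAT or its complement ATTGG), to which the NF-Y factor binds, and, in Hmgcs1 alone, the sterol element TCACNCCAC, to which SREBP binds. The Idi1 promoter lies at chr13:8885356-8885655, that of Cyp51 at chr5:4104648-4104947 on the minus strand and that of Hmgcs1 (3-hydroxy-3-methylglutaryl-CoA synthase) at chr13:119690101-119690400.
Idi1: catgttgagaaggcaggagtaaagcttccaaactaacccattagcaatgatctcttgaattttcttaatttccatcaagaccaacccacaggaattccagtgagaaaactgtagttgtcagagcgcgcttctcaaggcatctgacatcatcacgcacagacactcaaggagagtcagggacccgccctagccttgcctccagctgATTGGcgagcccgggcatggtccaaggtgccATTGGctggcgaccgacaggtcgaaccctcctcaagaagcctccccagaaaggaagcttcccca
Cyp51: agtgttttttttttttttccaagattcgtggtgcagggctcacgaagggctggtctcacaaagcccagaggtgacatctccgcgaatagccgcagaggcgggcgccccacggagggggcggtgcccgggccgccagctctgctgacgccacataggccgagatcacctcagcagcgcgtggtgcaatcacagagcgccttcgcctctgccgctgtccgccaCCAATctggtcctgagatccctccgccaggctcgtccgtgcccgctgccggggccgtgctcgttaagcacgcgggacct
Hmgcs1: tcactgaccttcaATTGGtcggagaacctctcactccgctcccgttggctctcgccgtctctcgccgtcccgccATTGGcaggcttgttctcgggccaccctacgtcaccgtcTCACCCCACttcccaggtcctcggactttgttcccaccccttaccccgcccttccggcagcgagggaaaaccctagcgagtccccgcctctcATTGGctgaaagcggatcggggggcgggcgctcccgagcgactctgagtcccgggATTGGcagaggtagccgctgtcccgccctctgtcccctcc

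A CCAAT box on either strand was found in all 14 genes of the list with a promoter, and in 41.1% of 27025 genes with a promoter. The element TCACNCCAC was found in 1 of the 14, and in 1.4% of genes. These matches are letters in a window and no binding was measured. Hmgcs1 itself was at 13898 ± 1622 normalized counts in ND saline and 6597 ± 1053 in WD AN1284 5 mg, a log2 fold change of -1.08 (adjusted p = 0.00311).

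Genes of sterol export went the other way. Of 11 tested LXR targets and exporters, 6 were higher and none was lower, with a median of 0.75 on the log2 scale. Abcg5, a subunit of the transporter that pumps cholesterol into bile, measured 998, 1272 and 1084 normalized counts in ND saline and 3453, 3632 and 4789 in WD AN1284 5 mg. Its partner Abcg8 measured 1306, 1839 and 1939 in ND saline against 4729, 4633 and 6849. Every treated liver was above every healthy liver for both genes, 3.52-fold (adjusted p = 6.20e-06) and 3.18-fold (adjusted p = 1.31e-05).

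Both were also above WD saline, where Abcg5 was at 1705, 1970 and 1779 and Abcg8 at 2203, 2500 and 2257 normalized counts. The log2 difference of WD AN1284 5 mg from WD saline was 1.11 for Abcg5 (adjusted p = 0.000505) and 1.20 for Abcg8 (adjusted p = 0.000342). The rise was not particular to the higher dose. In the 4 WD livers given 1 mg/kg/day the means were 4469 ± 863 for Abcg5 and 6311 ± 1195 for Abcg8. At 5 mg/kg/day they were 3958 ± 725 and 5404 ± 1252, and the 2 doses were not tested against each other. Under the normal diet ND AN1284 5 mg did not differ from ND saline past the threshold, with log2 0.15 (adjusted p = 0.615) and 0.44 (adjusted p = 0.121). Abcg1, which loads cholesterol onto lipoproteins from macrophages and other cells, was 4.99-fold higher than in ND saline (120 ± 21.0 against 596 ± 49.0). Soat1, which esterifies cholesterol, was higher by 1.77 on the log2 scale and Mylip, the LXR target that degrades the LDL receptor, by 1.17. The receptor genes themselves moved little. Nr1h3, which encodes LXR alpha, was at log2 0.10 (adjusted p = 0.522), or 0.31 with library totals (adjusted p = 0.0455), and Nr1h4, which encodes the bile acid receptor FXR, was lower by 0.40 (adjusted p = 0.00534), a call that was lost with library totals (-0.19, adjusted p = 0.119).

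Among 18 tested genes of bile acid synthesis and transport, 7 were lower and 1 was higher. Cyp7b1, the oxysterol hydroxylase of the acidic pathway, was at 7904, 8294 and 6253 normalized counts in ND saline and 2520, 1680 and 1645 in WD AN1284 5 mg (log2 -1.96, adjusted p = 4.01e-05), and no livers overlapped. Cyp7b1 is also a member of the list of male-biased genes below. Slc10a1, the bile acid uptake carrier NTCP, was lower by 0.74 on the log2 scale and Cyp27a1 by 0.55. Abcb4, the phospholipid floppase of the canalicular membrane, was higher (log2 0.57, adjusted p = 0.00190). WD saline had 12 of the same 18 genes below the ND saline level (all genes, 25.0%), and 8 of the 18 were higher in WD AN1284 5 mg than in WD saline (all genes, 5.51%).

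**Figure D2:**
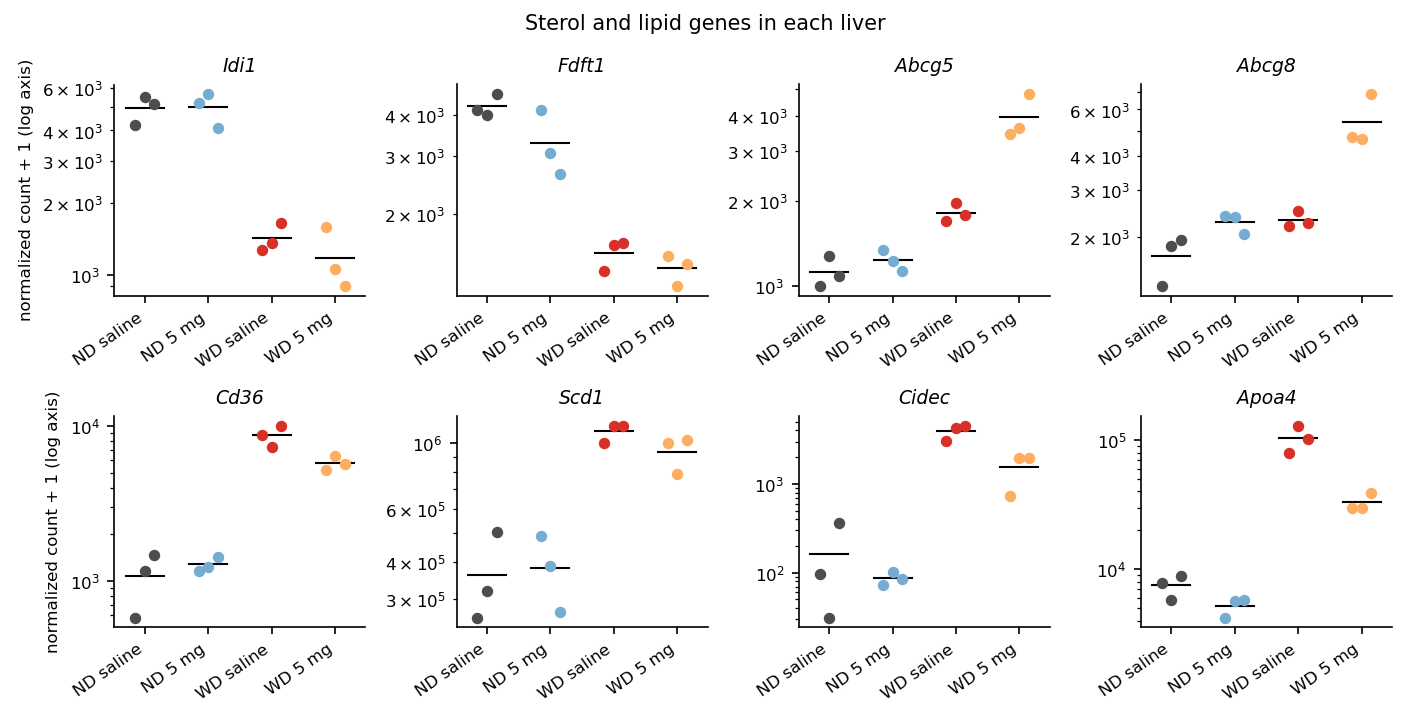
Normalized count + 1 on a log axis for 8 sterol and lipid genes, 1 point per liver and a bar at the mean of 3, in ND saline, ND AN1284 5 mg, WD saline and WD AN1284 5 mg. Idi1 and Fdft1 lie low in both WD groups shown. Of these 4 groups, Abcg5 and Abcg8 are highest in WD AN1284 5 mg. Apoa4 and Cidec lie between ND saline and WD saline in that group.

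Genes of fatty acid uptake and binding remained high in part. In bulk liver the cell type that expressed them was not measured. Of 13 tested, 7 were higher and 2 were lower than in ND saline. Cd36, a fatty acid translocase, measured 579, 1164 and 1474 normalized counts in ND saline and 5213, 6366 and 5711 in WD AN1284 5 mg, 5.75-fold higher (adjusted p = 6.20e-06). Lpl, the lipoprotein lipase that is low in the healthy adult liver, was at 1219, 474 and 598 against 3135, 3313 and 3674 (log2 2.26, adjusted p = 0.000350), and Vldlr, the receptor for very low density lipoprotein, was higher by 2.61. These 3 genes also passed against ND AN1284 5 mg, at log2 2.17, 1.57 and 1.31. The 2 genes of the list that were lower were binding proteins, singled out after their values were seen. Fabp1 was at log2 -0.72 (adjusted p = 0.0263) with overlapping livers, a call lost without ND saline replicate 1 or 3 or WD AN1284 5 mg replicate 1 or 2 (adjusted p = 0.0785, 0.144, 0.0884 and 0.0983), and Fabp5 at -1.86 (adjusted p = 0.0109), which lost its call without ND saline replicate 1 (adjusted p = 0.0503) and without WD AN1284 5 mg replicate 2 (adjusted p = 0.0503).

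The lipid droplet list gave 4 genes higher and 1 lower of 18, close to the share of all genes (30.8%). Its 2 leading members were among the largest rises of the comparison. Cidea, a droplet fusion protein of brown fat and fatty liver, was at 5.11, 3.95 and 40.5 normalized counts in ND saline and 156, 744 and 418 in WD AN1284 5 mg (log2 5.08, adjusted p = 0.00166). Cidec, a second fusion protein of this family, was at 95.8, 30.3 and 359 against 733, 1956 and 1943 (log2 3.77, adjusted p = 0.00731). ND saline replicate 3 was the highest healthy liver for both and still lay below every treated liver. Plin2, the main droplet coat protein of hepatocytes, was at log2 0.32 (adjusted p = 0.287). The count of 4 was 2 without WD AN1284 5 mg replicate 2, 2 without replicate 3, and 2 in a fit of the 6 libraries alone, in which Cidec did not pass (adjusted p = 0.0689). The other 2 higher genes were Fitm2 and Plin3 and the lower one was Cideb, named after their values were seen. These 3 calls were lost when certain single libraries of either group were left out, with adjusted p up to 0.0788, 0.159 and 0.157.

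Lipogenic genes were raised in part, with 7 higher and 1 lower of 17 and a median of 0.55. Scd1, the stearoyl-CoA desaturase, was among the most abundant transcripts, at 260187, 318247 and 504939 normalized counts in ND saline and 999778, 786178 and 1029232 in WD AN1284 5 mg (2.68-fold, adjusted p = 0.000268). Scd2, its paralogue, was higher by 1.90 on the log2 scale, and Acaca, acetyl-CoA carboxylase, by 1.07. Srebf1, which encodes the lipogenic regulator SREBP1, was 2.33-fold higher. Fasn, fatty acid synthase, was at log2 0.72 (adjusted p = 0.135) with overlapping livers. It passed with library totals (0.93, adjusted p = 0.0487) and in the fit of the 6 libraries alone (adjusted p = 0.0350). Mlxipl, which encodes the carbohydrate sensor ChREBP, was the 1 gene of this list that was lower (log2 -1.28, adjusted p = 0.0140), a call lost without ND saline replicate 3 (-0.93, adjusted p = 0.0750). Against WD saline none of the 17 was higher and 3 were lower (all genes, 5.51% and 7.03%), which were Scd2 at -1.13, Acaca at -0.70 and Elovl6, a fatty acid elongase.

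Of 24 genes of fatty acid oxidation 7 were higher and none was lower, near the share of all genes (30.8%), and 12 were higher under library totals, a scaling that moved all genes up. Vnn1, a pantetheinase and a target of PPAR alpha, was at 1105, 730 and 1614 normalized counts in ND saline and 3386, 4658 and 3877 in WD AN1284 5 mg (log2 1.85, adjusted p = 4.61e-05). Ppara itself was higher by 1.04 (adjusted p = 0.000223) and Cpt1a, the gate of mitochondrial entry, by 0.73 (adjusted p = 0.000463). Vnn1 was the member with the largest gap from ND AN1284 5 mg of these 3 (log2 1.86, adjusted p = 0.000139), where Ppara and Cpt1a did not pass (0.41, adjusted p = 0.186, and 0.29, adjusted p = 0.235). Apoa4, an apolipoprotein of the fat-loaded liver, measured 7860, 5816 and 8829 in ND saline and 29889, 29776 and 39168 in WD AN1284 5 mg. It was 4.42-fold above ND saline (adjusted p = 7.70e-05) and 3.10-fold below WD saline (adjusted p = 0.00101).

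Lists of inflammatory genes differed in how many members were higher. Of 20 tested genes of the NF-κB response, 16 were higher than in ND saline and none was lower, with a median of 1.87. Il1rn, the antagonist of the interleukin 1 receptor, was at 35.8, 42.1 and 43.0 normalized counts in ND saline and 472, 335 and 385 in WD AN1284 5 mg, 9.58-fold higher (adjusted p = 6.20e-06). Tlr4, the receptor for bacterial lipopolysaccharide, was at 24.3, 22.4 and 11.4 against 122, 140 and 96.0 (log2 2.61, adjusted p = 4.01e-05). The NF-κB inhibitor gene Tnfaip3 was higher by 2.29 and the adhesion molecule gene Vcam1 by 1.82. Tnf was low in all livers, at 5.11, 1.32 and 1.26 against 17.4, 10.4 and 17.5 (log2 2.31, adjusted p = 0.00881). Lcn2, the iron-binding acute phase protein lipocalin 2, was at 865, 2114 and 827 against 25487, 23609 and 3840, so that WD AN1284 5 mg replicate 3 was far below the other 2 treated livers. Its call (log2 3.52, adjusted p = 0.0198) was lost without ND saline replicate 1, ND saline replicate 3, WD AN1284 5 mg replicate 1 or WD AN1284 5 mg replicate 2 (adjusted p = 0.0652, 0.0599, 0.0776 and 0.0752).

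The 9 tested genes of MHC class II presentation were all higher (median 1.48), and 8 or 9 remained called when any 1 library was left out. H2-Aa, a class II alpha chain, was at 1395, 863 and 889 normalized counts in ND saline and 2579, 2973 and 3493 in WD AN1284 5 mg (log2 1.55, adjusted p = 0.00414). Of 8 genes of oxidant production 7 were higher, led by Cybb, the catalytic subunit of the phagocyte oxidase, at 431, 316 and 301 against 1853, 1539 and 1502 (4.70-fold, adjusted p = 0.000111). Nos2, at most 2.56 in ND saline and 6.07 to 9.82 in WD AN1284 5 mg, lost its call without ND saline replicate 2 (adjusted p = 0.0517) or replicate 3 (adjusted p = 0.0670). Chemokine ligands and receptors gave 12 higher and none lower of 24, with Ccl2 at log2 1.35 (adjusted p = 0.0410). That count was 6 with limma voom, 7 without ND saline replicate 3 and 6 without WD AN1284 5 mg replicate 1, where Ccl2 was at 0.84 (adjusted p = 0.219). Ccl2 also missed the threshold without ND saline replicate 2 (1.03, adjusted p = 0.143) or replicate 3 (1.38, adjusted p = 0.0860). Interferon-stimulated genes gave 9 higher and none lower of 25 (all genes, 16.7% and 14.1%). The count of 9 was 5 without ND saline replicate 1 or WD AN1284 5 mg replicate 3, and 4 without ND saline replicate 3 or WD AN1284 5 mg replicate 1.

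Markers of macrophages and their precursors moved with these genes. In bulk liver, more cells of a type and more RNA per cell cannot be told apart. All 11 monocyte markers were higher (median 2.12), and their summed level was 1262 to 2083 normalized counts in ND saline, 5317 to 6560 in WD AN1284 5 mg, 5807 to 8669 in WD saline and 3099 to 4666 in ND AN1284 5 mg. Of 12 Kupffer cell markers 9 were higher and 1 was lower, and their sum was 17268 to 21571 in ND saline against 28892 to 33172. Xcr1, 1 of the 9, was also listed as a dendritic cell marker. Adgre1, which encodes the macrophage antigen F4/80, was at 308, 254 and 132 in ND saline and 1425, 1389 and 1293 in WD AN1284 5 mg (6.26-fold, adjusted p = 0.000114). Cd5l, a secreted protein of tissue macrophages, was 5.48-fold higher and Csf1r, the receptor that macrophages need to survive, was higher by 1.82 on the log2 scale. The lower member was C6, a complement component that hepatocytes also make (log2 -0.83, adjusted p = 0.00170). The part of a larger macrophage share in the inflammatory lists was not tested.

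Markers of lipid-associated macrophages, the cells that gather around dying fat-laden hepatocytes, gave 8 higher and 1 lower of 13. Trem2, their defining receptor, was at 8.94, 5.27 and 10.1 normalized counts in ND saline and 73.5, 99.7 and 61.1 in WD AN1284 5 mg, 8.76-fold higher (adjusted p = 0.000460). Mmp12, macrophage elastase, was at 10.2, 3.95 and 3.79 against 257, 181 and 209 (33.4-fold, adjusted p = 0.000401). Both were higher still in WD saline, at 198 to 234 for Trem2 and 515 to 1379 for Mmp12, and their differences from WD saline did not pass (log2 -1.45, adjusted p = 0.0817, and -1.76, adjusted p = 0.176). Fabp5 was the 1 member that was lower. T and NK cell markers gave 2 higher (Cxcr6 and Nkg7) and 1 lower (Cd4) of 16 tested, and B cell markers 2 higher (Cd22 and Cd79b) and none lower of 8, both below the background of 30.8%. Nkg7 kept its call only without WD AN1284 5 mg replicate 2, and Cd79b only without ND saline replicate 1 or WD AN1284 5 mg replicate 1.

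These lists gave other counts against the other healthy reference, a comparison added after the data were seen. In ND mice given the same dose of AN1284, 9 of the 20 NF-κB genes were higher (all genes, 6.27% higher), 8 of the 9 MHC class II genes, 5 of the 11 monocyte markers and 6 of the 12 Kupffer cell markers, each against ND saline. Against ND AN1284 5 mg, WD AN1284 5 mg had 1 NF-κB gene higher, which was Tnfaip3 (log2 1.14, adjusted p = 0.0129), and no MHC class II, monocyte or Kupffer cell gene was called in limma in either direction. Only 3.07% of all genes were called there, so few calls or none in lists of this size are near that share. At an unadjusted p under 0.05 that comparison had 6 NF-κB genes higher, 0 of the MHC class II genes, 6 monocyte markers higher, and 2 Kupffer cell markers higher and 1 lower. The medians of these 4 lists in that comparison were 0.38, 0.15, 0.69 and 0.27. Adgre1 was at 565, 704 and 946 normalized counts in ND AN1284 5 mg, above all ND saline livers and below all WD AN1284 5 mg livers (log2 0.92, adjusted p = 0.191), and H2-Aa was at 1729, 2633 and 4332, overlapping the treated WD livers. A p above the threshold does not show that the 2 drug groups were alike. Cd36, Scd1, Idi1, Apoa4 and Cyp1a2 passed against both ND groups. Between WD AN1284 5 mg and WD saline none of the NF-κB, MHC class II or monocyte genes passed in limma (all genes, 12.5%), with medians of -0.28, -0.42 and -0.38, and with 5, 1 and 3 of them lower at an unadjusted p under 0.05.

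**Figure D3:**
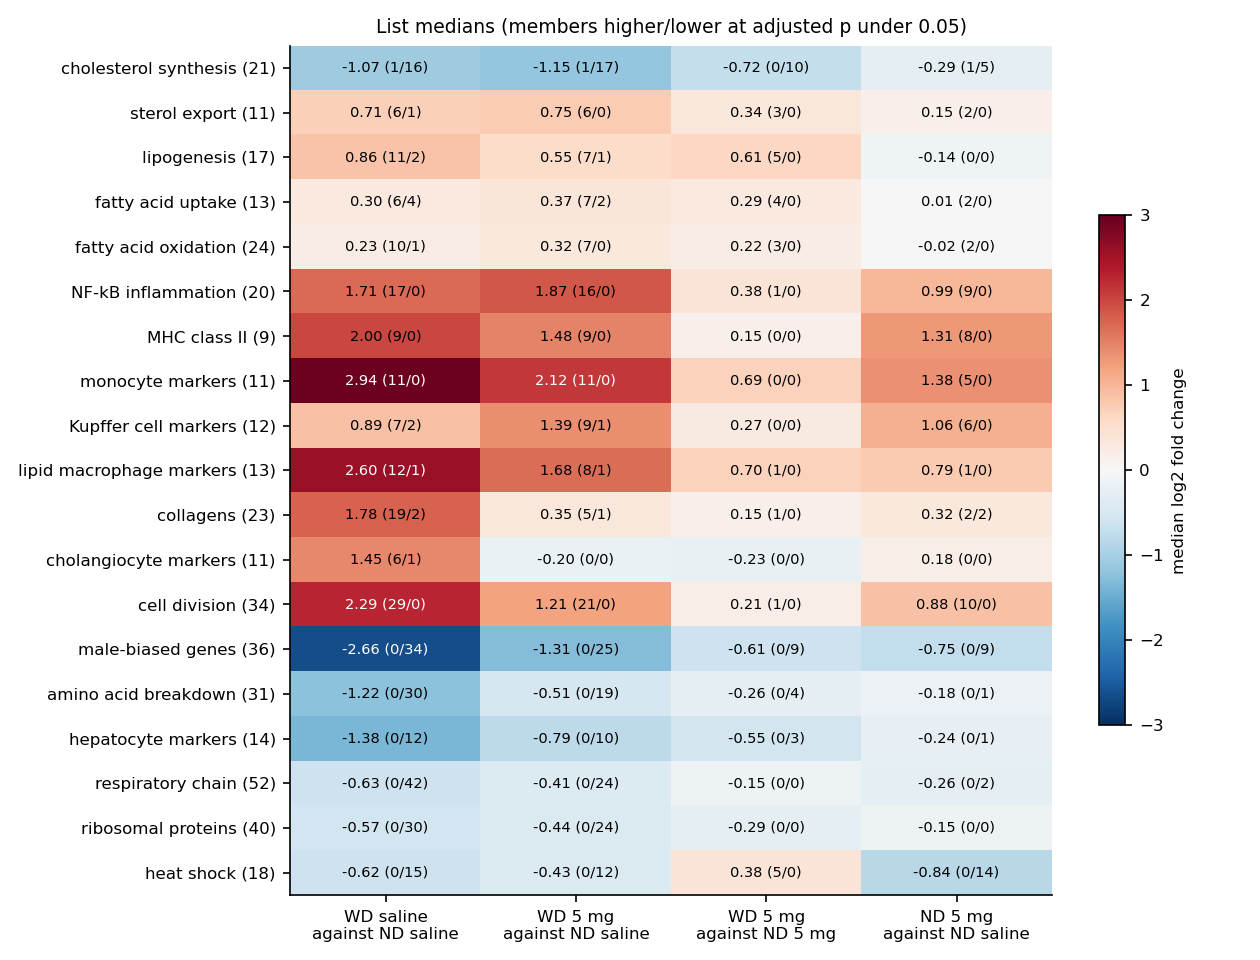
Median log2 fold change of 19 gene lists (rows, with the number of tested genes) in 4 comparisons (columns), with the numbers of members higher and lower at an adjusted p under 0.05 in brackets. NF-κB genes stand at 1.87 against ND saline and 0.38 against ND AN1284 5 mg, while cholesterol synthesis stands at -1.15 and -0.72. The columns share libraries.

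Matrix genes lay much nearer to the healthy level. Of 23 tested collagens and collagen enzymes, 5 were higher and 1 was lower than in ND saline (all genes, 16.7% and 14.1%), with a median of 0.35. In WD saline 19 were higher (all genes, 28.1%) with a median of 1.78. Col4a1, a basement membrane collagen, was at 896, 907 and 830 normalized counts in ND saline, 1657, 1851 and 1549 in WD AN1284 5 mg and 3861, 3820 and 4317 in WD saline. It was thus 1.92-fold above ND saline (adjusted p = 0.000456) and 2.37-fold below WD saline (adjusted p = 7.61e-05). In ND AN1284 5 mg Col4a1 and Col4a2 were also above ND saline (log2 0.76, adjusted p = 0.00808, and 0.79, adjusted p = 0.00189). P4ha1 and P4ha2 were lower there (all genes, 6.27% higher and 3.89% lower). Against ND AN1284 5 mg, Col4a1 and Col4a2 did not pass in WD AN1284 5 mg (0.18, adjusted p = 0.635, and -0.31, adjusted p = 0.224). Only P4ha1 of the 23 was called there, and it was higher (all genes, 3.07%). Against ND saline, collagens I and III did not pass, with Col1a1 at log2 0.76 (adjusted p = 0.284) and Col3a1 at 1.10 (adjusted p = 0.0599), although the 3 and 3 livers did not overlap for either. In a fit of the 6 libraries alone, which drops the spread of the other groups, both passed (adjusted p = 0.0146 and 0.00175) and 9 collagen genes were higher. The 5 higher genes were Col4a1, Col4a2, Col5a2, Col12a1 and Col14a1. They were 3 without ND saline replicate 1, 2 without ND saline replicate 3 and 2 without WD AN1284 5 mg replicate 2. Col12a1 had the weakest call (adjusted p = 0.0476) and kept it only without WD AN1284 5 mg replicate 1. The lower one was P4ha2, a prolyl hydroxylase (log2 -0.35, adjusted p = 0.0316), whose call was kept only without ND saline replicate 2 and was lost with library totals (adjusted p = 0.364).

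Nid1, the nidogen that links laminin to collagen IV, was 2.32-fold above ND saline (292 ± 45.2 against 683 ± 128 normalized counts, adjusted p = 0.000866), and stood at 2629 to 3036 in WD saline. Fbn1, fibrillin, was higher by 1.27 on the log2 scale. In ND AN1284 5 mg Fbn1 was also above ND saline (log2 1.16, adjusted p = 0.0132), and so was Nid1. Of 25 matrix genes other than the collagens, these 2 were higher there and none was lower (all genes, 6.27% and 3.89%). Against ND AN1284 5 mg none of the 25 was called in WD AN1284 5 mg (all genes, 3.07%), and none had an unadjusted p under 0.05. Tgfb1, the main fibrogenic cytokine, was at 302, 170 and 233 in ND saline and 452, 416 and 552 in WD AN1284 5 mg (log2 1.04, adjusted p = 0.00813), and Timp1, the inhibitor of matrix proteases, at 6.39, 2.63 and 2.53 against 36.7, 27.7 and 18.5 (log2 2.60, adjusted p = 0.00407). Acta2, the contractile actin of activated stellate cells, was at 43.4, 117 and 53.1 against 71.5, 53.8 and 77.5, with the healthy range on both sides of the treated one (log2 0.04, adjusted p = 0.947). Of 11 myofibroblast markers, Timp1 alone was higher (all genes, 16.7%), where 5 were in the fit of the 6 libraries alone, 2 with library totals and 2 without ND saline replicate 2. Their sum was 1823 to 2337 in ND saline, 2986 to 4447 in WD AN1284 5 mg and 11207 to 19039 in WD saline. None of 11 cholangiocyte markers passed in limma (all genes, 30.8%) or limma voom in either direction, and 1 was lower at an unadjusted p under 0.05 (summed level 2804 to 4646 against 2118 to 4627). Against WD saline 8 were lower (all genes, 7.03%). Krt19, a keratin of bile ducts, was at log2 -0.86 (adjusted p = 0.120), and passed without ND saline replicate 2 (-1.20, adjusted p = 0.0446).

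Cell division genes were still above ND saline, with 21 of 34 higher (all genes, 16.7%), none lower and a median of 1.21. In WD saline 29 were higher (all genes, 28.1%), with a median of 2.29. Against WD saline, 5 of the 34 were lower in WD AN1284 5 mg and none was higher (all genes, 7.03% and 5.51%). The median there was -0.82, and 19 were lower at an unadjusted p under 0.05. Ccnd1, the cyclin of the G1 phase, was at 413, 410 and 374 normalized counts in ND saline and 1475, 1323 and 1385 in WD AN1284 5 mg. With a spread this small the 3.49-fold difference was far outside both groups (adjusted p = 8.27e-06), and Ccnd1 also passed against ND AN1284 5 mg (log2 0.94, adjusted p = 0.00745). Bub1, a spindle checkpoint kinase, was at 2.53 to 2.63 in ND saline and 24.2, 19.1 and 12.0 in WD AN1284 5 mg. The count of 21 was 12 without WD AN1284 5 mg replicate 1. In ND AN1284 5 mg, 10 of the 34 were higher than in ND saline (all genes, 6.27%). Against ND AN1284 5 mg, Ccnd1 was the 1 gene of the 34 called in WD AN1284 5 mg (all genes, 3.07%). The median there was 0.21, and 5 were higher and 2 lower at an unadjusted p under 0.05.

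Genes of the fetal and imprinted list gave 5 higher (Golm1, H19, Ly6d, Mest and Sprr1a) and 1 lower (Meg3) of 14, and annexins and S100 proteins 7 higher and 2 lower (Anxa6 and S100a1) of 16. Of all genes tested, 16.7% were higher and 14.1% lower. The count of 5 was 3 without ND saline replicate 3 or WD AN1284 5 mg replicate 1, and that of 7 was 4 with limma voom, 4 without either of those libraries and 3 without WD AN1284 5 mg replicate 2. Anxa6 lost its call with library totals (adjusted p = 0.483) and without ND saline replicate 1 or WD AN1284 5 mg replicate 1 or 2, and S100a1 without ND saline replicate 3 (adjusted p = 0.0501). H19 did not pass with limma voom (adjusted p = 0.0823). Ly6d, a surface protein of epithelial and lymphoid progenitors, was at 21.7, 19.8 and 58.2 normalized counts in ND saline and 874, 1106 and 619 in WD AN1284 5 mg (27.8-fold, adjusted p = 2.73e-06). In WD saline it reached 3447 to 4691, so the treated level was 4.86-fold below that (adjusted p = 0.000995). Anxa2, the calcium-dependent membrane protein annexin A2, was 4.91-fold above ND saline (342 ± 68.8 against 1677 ± 339) and 3.21-fold below WD saline. Sprr1a, a cornified envelope protein, was at 1.28, 0 and 0 in ND saline and 18.4, 14.7 and 19.6 in WD AN1284 5 mg, against a mean of 306 in WD saline. These 3 genes passed against ND AN1284 5 mg too, at log2 4.65, 1.71 and 3.72. Rad51b, a recombination protein, was 20.3-fold above ND saline (adjusted p = 4.14e-06) and only 1.65-fold below WD saline (adjusted p = 0.249).

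On the side of the losses, genes that male livers express more than female livers stood out by their number. Of 36 tested, 25 were lower than in ND saline and none was higher, with a median of -1.31 (all genes, 14.1% lower). Serpina1e, an alpha-1-antitrypsin of mice, was at 428246, 386877 and 337409 normalized counts in ND saline and 26085, 39891 and 19782 in WD AN1284 5 mg (log2 -3.80, adjusted p = 7.67e-06). In WD saline it was at 2471, 6309 and 1471, so that the treated livers lay 9.64-fold above that group (adjusted p = 4.16e-05). Hsd3b5, a steroid dehydrogenase, was at 6804, 4623 and 5933 in ND saline, 1234, 655 and 380 in WD AN1284 5 mg and 7.76 to 56.8 in WD saline. For both genes the 3 groups did not overlap. Selenbp2, a selenium-binding protein, was at 17052, 25994 and 9510 against 1026, 592 and 421 (25.4-fold lower), and did not differ past the threshold from WD saline (log2 0.20, adjusted p = 0.891). Reads of the Serpina1 and major urinary protein families can be shared between near-identical copies, so single members are uncertain. Of 20 tested genes that female livers express more than male livers, 5 were higher and 2 lower (all genes, 16.7% and 14.1%). Their median was 0.81. The 2 lower were Cyp2c40 and Cyp2c69, at log2 -4.06 and -3.95. The count of 5 was 3 with limma voom, and also without ND saline replicate 1 or 2 or WD AN1284 5 mg replicate 2.

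WD saline had 34 of the 36 below ND saline and none above, and 23 of the 36 were higher in WD AN1284 5 mg than in WD saline (all genes, 5.51%). In ND AN1284 5 mg 9 of the 36 were lower than in ND saline (all genes, 3.89%). Against that group, 9 of the 36 were lower in WD AN1284 5 mg, Serpina1e among them (log2 -3.09, adjusted p = 0.000139). The list of growth hormone and STAT5 genes gave 4 lower (Igf1, Igfals, Igfbp1 and Igfbp4) and 1 higher (Jak2) of 18, near the share of all genes (30.8%). The Jak2 call was lost without ND saline replicate 1 or 3 or WD AN1284 5 mg replicate 1 or 2 (adjusted p = 0.0898, 0.0730, 0.0765 and 0.0524), and that of Igfbp4 with library totals (adjusted p = 0.0635). Igf1, a secreted growth factor, was at 22366, 18290 and 24379 in ND saline and 10995, 10365 and 8733 in WD AN1284 5 mg (2.16-fold lower, adjusted p = 0.000293), and Igfals, which carries it in plasma, was 2.32-fold lower (adjusted p = 0.000289). Igf1 did not differ past the threshold from WD saline (log2 0.13, adjusted p = 0.706).

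Other hepatocyte genes were lower by smaller factors. Of 14 hepatocyte markers 10 were lower and none was higher, and their summed level was 4226030 to 4568702 normalized counts in ND saline, 2472235 to 3074416 in WD AN1284 5 mg, 1802816 to 2195477 in WD saline and 3961843 to 4301085 in ND AN1284 5 mg. Alb, serum albumin, was the most abundant transcript named here, at 2434112 ± 34867 in ND saline and 1407065 ± 274083 in WD AN1284 5 mg (1.75-fold lower, adjusted p = 0.00265). The part of a smaller hepatocyte share of the RNA was not tested. Of 10 urea cycle and glutamine genes 6 were lower. Ass1, argininosuccinate synthase, was at 121034, 131446 and 137811 against 60743, 51999 and 64462 (2.21-fold lower, adjusted p = 0.000264), and Arg1, which releases urea, was lower by 0.77 on the log2 scale. Both were above WD saline, by 1.11 and 1.02. Glul, glutamine synthetase of the hepatocytes around the central vein, was the member that was higher (log2 0.53, adjusted p = 0.00749).

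Amino acid breakdown gave 19 lower and none higher of 31, with a median of -0.51. Tat, tyrosine aminotransferase, was at 98387, 124376 and 112134 normalized counts in ND saline and 44104, 36129 and 32606 in WD AN1284 5 mg (log2 -1.57, adjusted p = 0.000368). In ND mice given the drug Tat was at 30431, 22063 and 39696, also below ND saline (log2 -1.90, adjusted p = 0.000474). The count of 19 was 10 without WD AN1284 5 mg replicate 2 and 10 with library totals. Pck1, the rate-limiting enzyme of glucose production, was 2.52-fold lower (adjusted p = 0.000500) and also lower in ND AN1284 5 mg (log2 -1.02, adjusted p = 0.0118).

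Cyp1a2, a cytochrome P450 of drug metabolism that the aryl hydrocarbon receptor induces, had the smallest adjusted p of the genes named here. It was at 32977, 28615 and 27059 normalized counts in ND saline, 8600, 7309 and 8857 in WD AN1284 5 mg and 3181 to 4532 in WD saline. The treated level was 3.58-fold below ND saline (adjusted p = 3.21e-07), 2.58-fold below ND AN1284 5 mg (adjusted p = 2.16e-05) and 2.20-fold above WD saline (adjusted p = 3.47e-05). Cyp1a1, the classical target of that receptor, was low throughout, at 34.5, 21.1 and 26.6 in ND saline and 15.5, 23.4 and 19.6 (log2 -0.46, adjusted p = 0.296). Among 18 genes of the receptors CAR and PXR, 9 were lower and 1, the exporter gene Abcc3, was higher, a call lost without ND saline replicate 1 or WD AN1284 5 mg replicate 2 or 3 (adjusted p = 0.105, 0.0721 and 0.0891). The count lower was 4 without WD AN1284 5 mg replicate 1 and 5 without replicate 2.

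**Figure D4:**
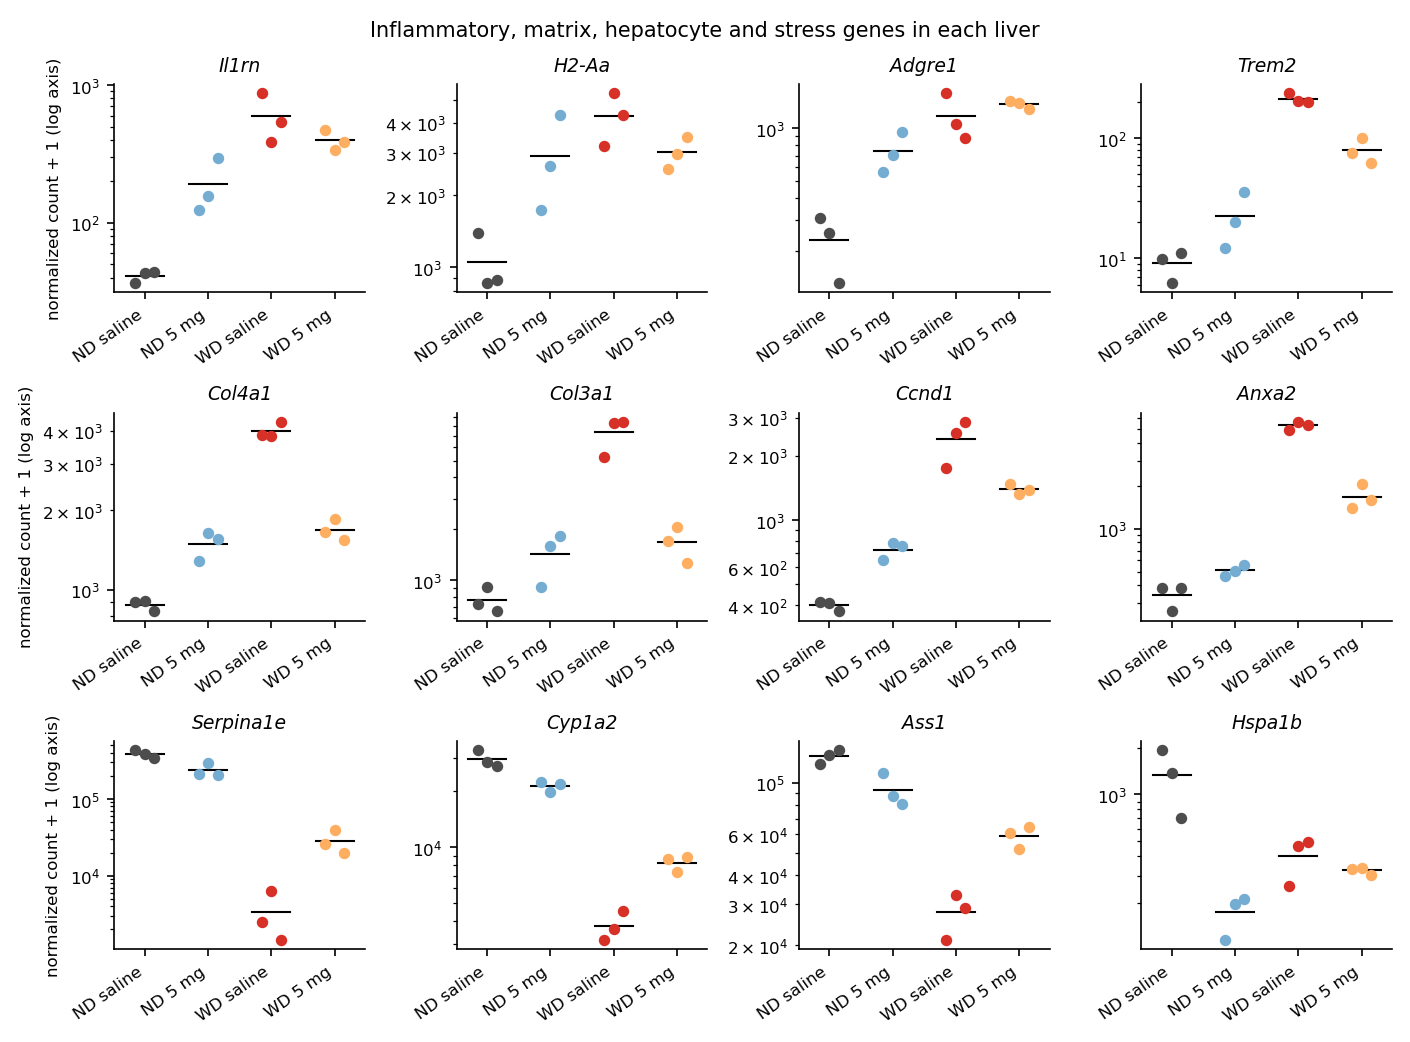
Normalized count + 1 on a log axis for 12 inflammatory, matrix, hepatocyte and stress genes, 1 point per liver and a bar at the mean of 3. Il1rn and Adgre1 lie high in WD AN1284 5 mg as in WD saline, Col3a1 and Col4a1 lie nearer to ND saline, Serpina1e and Cyp1a2 lie between the saline groups, and Hspa1b is highest in ND saline alone.

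Small, broad decreases were seen in housekeeping lists. Of 52 nuclear genes of the respiratory chain 24 were lower (median -0.41) and of 40 ribosomal protein genes 24 were lower (median -0.44), with none higher in either. With library totals these counts were 8 and 5, and the medians -0.20 and -0.23. Without ND saline replicate 1 they were 6 and 5, without WD AN1284 5 mg replicate 1 they were 7 and 6, and without replicate 2 they were 7 and 13. The respiratory chain count was 13 without ND saline replicate 3. Neither list had a member called in limma against ND AN1284 5 mg (all genes, 3.07%) or against WD saline (all genes, 12.5%). At an unadjusted p under 0.05 the respiratory chain had 0 members against ND AN1284 5 mg and 9 higher against WD saline, and the ribosomal list 13 lower and 0.

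The 12 largest rises by the rule for named genes were Cidea, Mmp12, Cfd, Ly6d, Chil1, Rad51b, Themis, Fcrl5, Cidec, Ntrk2, Lcn2 and Orm3. Cfd, the serine protease adipsin that fat cells secrete, was at 28.1, 15.8 and 98.6 normalized counts in ND saline and 626, 1301 and 1618 in WD AN1284 5 mg (log2 4.91, adjusted p = 0.00492), and did not pass with limma voom on the raw counts (adjusted p = 0.0806). Of 8 adipocyte markers 4 were abundant enough to test, and Cfd and Fabp4 were higher. Fabp4 lost its call without ND saline replicate 2 (0.70, adjusted p = 0.0611). Chil1, a chitinase-like protein of inflamed tissue, was at 2.56, 18.4 and 7.59 against 285, 247 and 136 (log2 4.67, adjusted p = 0.000289). Themis, a signalling protein of developing T cells, was at 6.39, 13.2 and 21.5 against 217, 393 and 144 (log2 4.12), and Ntrk2, a neurotrophin receptor, at 29.4, 23.7 and 46.8 against 385, 721 and 277 (log2 3.69). Fcrl5, a receptor of B cells, had the weakest test of the 12 (adjusted p = 0.0441) and lost its call without ND saline replicate 1 or 2 or WD AN1284 5 mg replicate 2 or 3 (adjusted p = 0.148, 0.0920, 0.117 and 0.137).

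The 12 largest falls were Selenbp2, Serpina4-ps1, Adgrf1, Cyp2c40, Gtpbp4-ps1, Cyp2c69, Serpina1e, Mup12, Gm3839, Fam222a, Srgap3 and Hsd3b5. Several belong to families with near-identical copies or are pseudogenes, whose reads the counting could have split, and they are uncertain to that extent. Adgrf1, an adhesion receptor, was at 271, 212 and 285 normalized counts in ND saline and 26.1, 3.47 and 17.5 in WD AN1284 5 mg, and also passed against ND AN1284 5 mg (log2 -3.79, adjusted p = 0.000267). Srgap3, a GTPase-activating protein of the cytoskeleton, was at 141, 246 and 163 against 24.2, 27.7 and 9.82, and stood at a mean of 96.4 in ND AN1284 5 mg.

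Some genes differed in the same direction from both saline groups. By the rule for named genes 30 were higher than both saline groups and 19 were lower than both. The 5 largest of the 30 were Abcg5, Abcg8, Prtn3, Slc22a26 and Gbp2b. Gbp2b, an interferon-induced GTPase, was at 130, 73.8 and 79.7 normalized counts in ND saline and 376, 190 and 248 in WD AN1284 5 mg, against a mean of 111 in WD saline, and was higher in ND AN1284 5 mg too (log2 1.17, adjusted p = 0.0469). Prtn3 and Slc22a26 (adjusted p = 0.0446 and 0.0461) lost their calls when any 1 of the 6 libraries was left out, with adjusted p from 0.0514 to 0.148. Of the 5 largest falls among the 19, Prss8, an epithelial channel-activating protease, was at 244, 161 and 274 in ND saline, 264, 241 and 486 in WD saline and 78.3, 75.4 and 66.6 in WD AN1284 5 mg (2.99-fold below ND saline, adjusted p = 0.000311). Cdh1, E-cadherin of epithelial junctions, was lower by 1.02 on the log2 scale and Itih5, a hyaluronan-binding protein, by 0.92. Cystm1 and Kdf1 were lower by 1.27 and 0.92.

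Other genes lay within 0.5 log2 units of WD saline. Of 3426 genes eligible by the same rule, 1378 higher and 1329 lower genes were within this distance. The largest rises were Cd300lb, Tlr1, Tlr8, Gm19619 and Adgre1. This rule did not ask that WD saline itself differed from ND saline past the threshold. The share of all genes tested within this distance was not counted. Tlr8, an endosomal receptor for single-stranded RNA, was at 19.2, 22.4 and 17.7 normalized counts in ND saline and 142, 163 and 112 in WD AN1284 5 mg, and differed from WD saline by -0.03 on the log2 scale. Tlr1, a receptor for bacterial lipopeptides, was at 25.6, 10.5 and 15.2 against 121, 125 and 127.

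ND saline itself stood apart from the other groups in some genes. Of 18 heat shock genes 12 were lower in WD AN1284 5 mg (median -0.43, all genes 14.1% lower). In ND AN1284 5 mg 14 were lower than in ND saline (median -0.84, all genes 3.89% lower). Against ND AN1284 5 mg, 5 of the 18 were higher in WD AN1284 5 mg (all genes, 1.70%) and none was lower. The median there was 0.38, and 11 were higher at an unadjusted p under 0.05 in limma. The count of 12 was 7 without ND saline replicate 1 and 4 with library totals. Hspa1b, the stress-inducible HSP70, was at 1919, 1380 and 706 normalized counts in ND saline, 330, 337 and 302 in WD AN1284 5 mg, 258, 462 and 490 in WD saline and 115, 196 and 210 in ND AN1284 5 mg. No liver of the 3 other groups reached the lowest ND saline liver. Hspa1b has a near-identical neighbour, Hspa1a, and its reads are uncertain to that extent. The abundant chaperone gene Hspa8 was lower by 0.64 in WD AN1284 5 mg and by 0.99 in ND AN1284 5 mg. Nr1d1, the clock repressor REV-ERB alpha, was at 135, 402 and 464 in ND saline, 1675, 1648 and 2087 in WD AN1284 5 mg, 1117 to 1242 in WD saline and 2133 to 2618 in ND AN1284 5 mg.

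The Hspa1b promoter (chr17:34959189-34959488, minus strand, RefSeq, GRCm38.p6) is shown as an example of the heat shock list, with capitals on the heat shock element GAANNTTC.
Hspa1b: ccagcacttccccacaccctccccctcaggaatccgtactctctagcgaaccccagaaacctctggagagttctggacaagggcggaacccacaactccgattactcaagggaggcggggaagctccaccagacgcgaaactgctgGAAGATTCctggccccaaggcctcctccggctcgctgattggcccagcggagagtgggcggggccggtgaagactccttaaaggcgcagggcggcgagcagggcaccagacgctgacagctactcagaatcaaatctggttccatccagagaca
The element was found in 9 of 13 heat shock genes with a promoter and in 9.0% of all genes. The spaced form TTCNNGAA was in 5 of the 13 and 9.6% of genes. The STAT5 element TTCNNNGAA was in 3 of 25 promoters of male-biased genes and in 9.6% of genes, and the DR4 element of LXR in 0 of 9 sterol export promoters and 5 of 32851 promoters in all. All motifs were searched on both strands.

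Further genes shared the pattern of ND saline standing apart. Fam222a was at 945, 917 and 933 normalized counts in ND saline and 165, 86.7 and 72.0 in WD AN1284 5 mg, and it was lower in ND AN1284 5 mg than in ND saline too (log2 -2.77, adjusted p = 6.44e-05). C4a and Col27a1 were lower by 2.53 and 2.62 in WD AN1284 5 mg and by 2.23 and 1.88 in ND AN1284 5 mg. Against ND AN1284 5 mg none of Nr1d1, Hspa1b, Fam222a, C4a or Col27a1 passed in limma (adjusted p from 0.113 to 0.808). For these genes a difference from ND saline was thus also present between the ND groups.

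**Figure D5:**
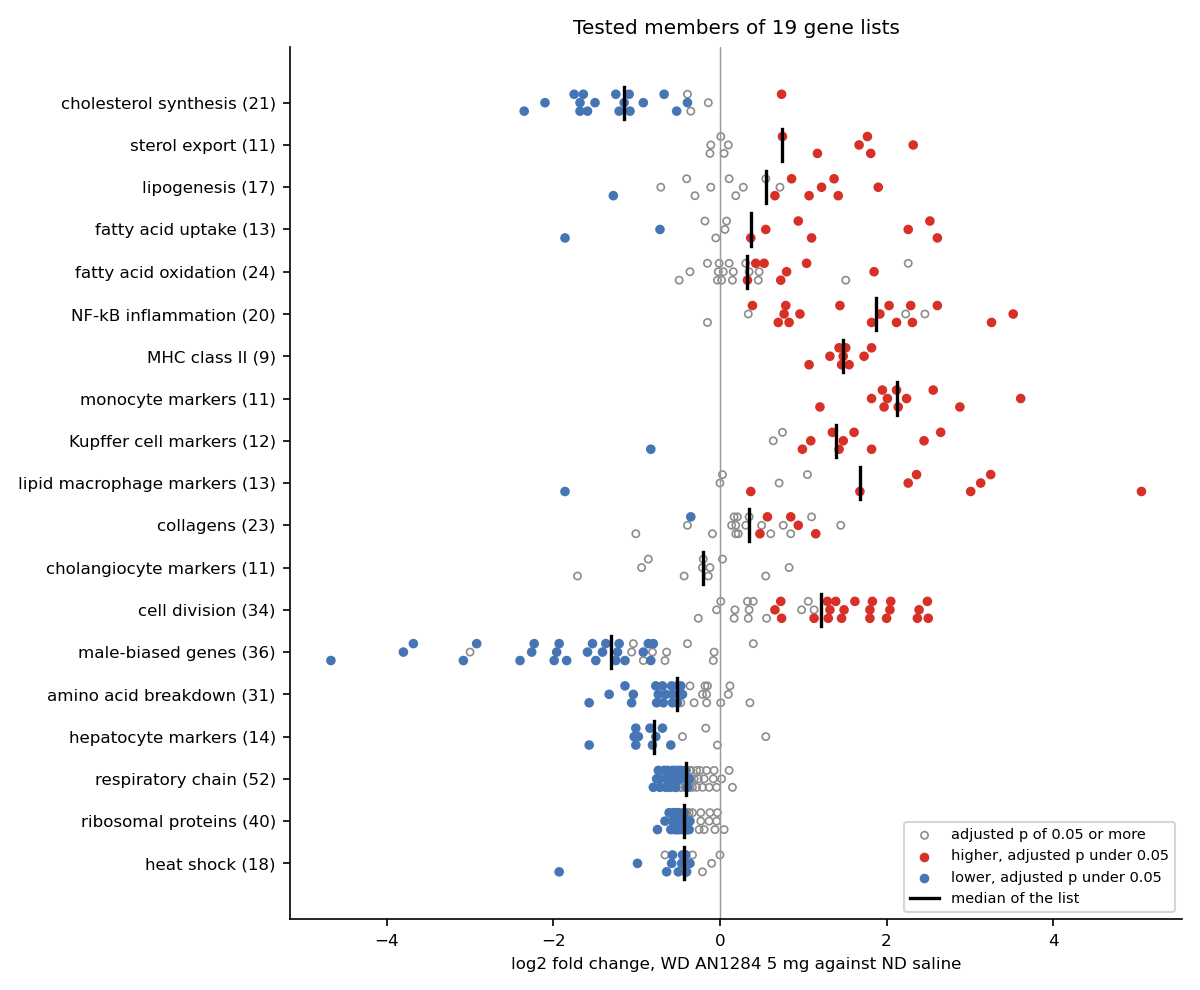
Log2 fold change of every tested member of 19 gene lists in WD AN1284 5 mg against ND saline. Filled points passed at an adjusted p under 0.05, open points did not, and the bar is the list median. Cholesterol synthesis lies mostly below 0, MHC class II and monocyte markers entirely above it, and cholangiocyte markers hold no filled point.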

How the data were processed

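Liver poly-A RNA of 19 mice was sequenced, and 6 libraries form the main comparison. The deposited table gives, per gene, raw counts and the authors' normalized counts, which are counts divided by DESeq2 size factors. Its question marks in place of missing cells made the columns be recorded as other values, so limma on normalized counts was used in place of a count test. The submitters' processing notes name cutadapt 1.18, TopHat2 2.1.1, HTSeq 0.6.0 and DESeq2 1.22.1, on GRCm38. Columns of the authors' own fold changes and p-values were not used. Normalized values are given only for genes with 10 or more reads in total, and 60 gene names belong to more than 1 gene.

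All 19 libraries in 6 groups were fitted on log2(normalized count + 1) with limma 3.58.1 (R 4.3.3, trend, robust). Genes with a normalized count of 10 or more in at least 3 libraries were tested (14743), with Benjamini-Hochberg adjustment over all of them and a threshold of 0.05. A fold change on this scale understates the change of genes with low counts. In simulated data 100 genes were changed by 1 log2 unit and 100 by 2, and the fit recovered 63% and 87% of them, with 8 false calls. Far fewer genes were changed there than were called here. No smaller change was simulated, so recovery at the median called size of 0.73 is not known.

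Named genes are the 12 largest rises and falls among called genes with a mean of 50 or more and no overlap, up to 4 genes of smallest p per list, 5 per direction that differed alike from both saline groups, 5 per direction within 0.5 log2 units of WD saline, and genes the study discusses. Others are named as chosen after their values were seen, or as members of a small count. The members and lists were chosen with earlier results of these data known. Alternatives were library totals, limma voom, other filters and pseudocounts, the 6 libraries alone, a replicate block and leaving out each library. Results that need certain withheld items are not reported here.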

Additional observations from a re-analysis of the deposited data

How the results depend on the processing

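Scaled to library totals, 4189 genes were higher and 910 lower in WD AN1284 5 mg than in ND saline, since that scaling moved the median of all genes by 0.208 on the log2 scale. Leaving out 1 library gave 1747 to 2537 genes higher and 1231 to 2296 lower. The count lower was 1231 without ND saline replicate 1, 1290 without ND saline replicate 3, 1301 without WD AN1284 5 mg replicate 1 and 1315 without replicate 2, and these fits have fewer samples. Limma voom gave 2110 and 1975, and the 6 libraries alone 1968 and 1628. Acta2 changed sign, from 0.04 to between -0.24 and 0.47 when 1 library was left out, always far from the threshold. Of 126 named genes that were called, all 126 kept their direction and 95 their call under all 16 alternatives. The numbers of the replicates do not pair the mice: same-numbered livers correlated at -0.06, -0.009 and 0.046 in their deviations from the group means. With the replicate block 2441 genes were higher and 2089 lower, and 2 named genes lost their call. A DESeq2 fit was not run. With 3 livers a group, a gene that did not pass the threshold is not shown to be alike in both.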
